A study of Homo sapiens with 12 samples.

Results

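The transcripts described here are the expressed long intergenic noncoding RNAs (LINC) and antisense RNAs of HL-60 cells, a long-established human line that came from a leukemia of the myeloid lineage (acute myeloid leukemia, AML). They were chosen by name and level: a gene symbol made of LINC and digits, or ending in -AS1, -AS2 or -AS3, with a mean of at least 50 in the deposited normalized counts over all libraries. This gave 241 members of 1523 rows with such a name and at least 1 read, and of 24018 genes with a read in all. Of the members, 73 have LINC names and 168 antisense names (161 ending in -AS1, 7 in -AS2 and 0 in -AS3). The level that chose them is not a finding. Because the mean covers the DNR-treated libraries too, 15 members had a mean under 50 in DMSO, among them ADPGK-AS1 (18.1 normalized counts), LINC00176 (22.0) and DARS-AS1 (44.7). Just inside the minimum were MMP25-AS1, UBXN10-AS1 and LINC01337, with means of 50.8, 50.4 and 50.3 normalized counts. Just outside it were CRYM-AS1, RAB11B-AS1 and LAMTOR5-AS1, with 49.7, 49.3 and 49.2.

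Cells received for 3 h either 1 µM daunorubicin (DNR), 0.5 µM ML-792, both drugs at these doses (ML-792+DNR), or the vehicle dimethyl sulfoxide (DMSO), with 3 libraries in each group. DNR, an anthracycline and a mainstay of AML chemotherapy, inserts between DNA bases and holds topoisomerase II on its cut ends. ML-792 blocks the E1 step of SUMOylation, the linkage of the SUMO polypeptide to protein substrates, and the study asked how SUMOylation bears on gene expression under DNR. The design compares each drug and the combination with DMSO, the combination with each drug alone, and the effect of DNR with and without ML-792 (the interaction).

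Long noncoding RNAs are transcribed by RNA polymerase II, capped and often spliced and polyadenylated, but lack a long open reading frame. Antisense RNAs are named after the gene they face. Some overlap that gene on the opposite strand, and others start next to its promoter and run away from it as divergent transcripts. LINC RNAs lie, by name, between genes, although several such records were later found to hold a small open reading frame or to start at the promoter of a neighbour.

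Reads assigned to genes ranged from 28647951 to 46451654 per library. All 10 markers of the myeloid line were among the 13696 genes tested, and together took 10700 to 13900 CPM (reads scaled to library size) per library. Of this sum MPO, the myeloperoxidase of the granules, alone had 10100 to 12200 CPM, whereas ELANE, the neutrophil elastase gene, had only 0.324 to 4.03 CPM. CEBPA, a myeloid transcription factor gene, was the marker called in DNR against DMSO, with a log2 fold change of −1.26, and its part in the results was not tested. Marker lists of lymphocytes, erythroid cells, megakaryocytes and stromal or epithelial cells summed to at most 0.984, 1.31, 0.403 and 3.06 CPM in any library. Mitochondrial transcripts took 4.01% to 6.37% of reads in replicate 1 of each group and 2.49% to 3.48% in replicates 2 and 3, so that counts of members were also made without replicate 1.

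All 241 members passed the filter on low counts, and the lowest count of any member in any library was 18 reads. Mean CPM over the 12 libraries ranged from 1.45 to 1140 with a median of 5.05. Only 63 members reached 10 CPM and 4 reached 100 CPM. LRRC75A-AS1, now named SNHG29 and the host of small nucleolar RNAs in its introns, alone took 29.7% to 33% of the reads of all members. The members together summed to 3781 ± 215 CPM in DNR, 3524 ± 116 CPM in ML-792, 3742 ± 182 CPM in ML-792+DNR and 3528 ± 129 CPM in DMSO (SD, n = 3 each), ranges that overlapped between DNR and DMSO.

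The 8 most abundant members were LRRC75A-AS1, LINC00998, ENTPD1-AS1, OIP5-AS1, LINC01296, FGD5-AS1, PSMA3-AS1 and EMC3-AS1, and apart from EMC3-AS1 none had a 2-fold change at an adjusted p below 0.05 in DNR against DMSO. LRRC75A-AS1 had 1120, 1150 and 1270 CPM in DNR, against 1130, 1050 and 1140 CPM in DMSO, a log2 fold change of 0.10 ± 0.07 (SE). LINC00998, a record now read as the protein-coding gene SMIM30, had 147, 143 and 164 CPM in DNR, against 163, 158 and 179 CPM in DMSO. OIP5-AS1, the human counterpart of the zebrafish transcript Cyrano, had 95.8, 106 and 106 CPM in DNR, against 117 CPM in each DMSO library. The DNR libraries of OIP5-AS1 all lay below the DMSO libraries, yet the log2 difference was only −0.19 ± 0.07 (adjusted p = 0.0963, edgeR). Per kilobase of exon, LRRC75A-AS1 and LINC00998 came closer to each other, at 128 and 89.2 RPKM (CPM per kilobase), whereas ENTPD1-AS1 and OIP5-AS1, with long exonic models, had 4.63 and 4.72 RPKM.

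All 241 members have a RefSeq record, 54 of them under another symbol today. RefSeq gives 225 as long noncoding RNA, 1 as antisense RNA, 13 as protein-coding and 2 as transcribed pseudogenes. Matches of TNRC6C-AS1 to TMC6 and of UBXN10-AS1 to PLA2G2C, both by synonym and both among the protein-coding records, may not name the counted transcript, which leaves their positions and classes uncertain too. A total of 25 now carry a name ending in -DT (divergent transcript). On GRCh37, the build of the counts, 230 members matched a single GENCODE gene. Of these, 118 start within 2000 bp of the start of a protein-coding gene on the other strand, whether or not they overlap it (called divergent here). Another 63 overlap such a gene on the opposite strand without a close start. An overlap with a protein-coding gene on the same strand only was found for 8, and 41 overlap none.

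The promoter windows of 6 of the members that changed with DNR both with and without ML-792, 4 that rose and 2 that fell, are shown so that the start sites of members changing in either direction can be compared. Each runs from 250 bases before to 50 bases after the RefSeq start, 5′ to 3′ on the strand of the transcript, from RefSeq on GRCh38.p14. Capitals mark matches on either strand to AP-1 (TGANTCA), CRE (TGACGTCA), NF-kB, ETS (CCGGAAG), the E-box (CACGTG), the TATA box (TATAAA) or SP1 (GGGCGG) motifs, none of which contains another. The first 4 rose and the last pair fell. Their windows are, in this order, chr15:72782585-72782884 (plus strand), chr17:7012285-7012584 (minus), chr3:9986643-9986942 (plus), chr2:96208166-96208465 (plus), chr7:38341171-38341470 (plus) and chr16:30923220-30923519 (minus).
ADPGK-AS1: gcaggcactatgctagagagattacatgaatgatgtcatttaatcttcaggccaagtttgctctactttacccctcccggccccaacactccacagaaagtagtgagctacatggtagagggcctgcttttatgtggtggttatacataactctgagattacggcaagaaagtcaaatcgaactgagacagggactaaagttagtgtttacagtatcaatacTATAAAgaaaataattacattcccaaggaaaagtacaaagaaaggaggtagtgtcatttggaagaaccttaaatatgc
ALOX12-AS1: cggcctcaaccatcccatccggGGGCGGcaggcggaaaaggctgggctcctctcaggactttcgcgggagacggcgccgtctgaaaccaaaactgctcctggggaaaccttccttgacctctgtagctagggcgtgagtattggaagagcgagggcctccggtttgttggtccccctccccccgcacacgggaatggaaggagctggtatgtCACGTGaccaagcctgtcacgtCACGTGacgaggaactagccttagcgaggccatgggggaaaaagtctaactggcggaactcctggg
EMC3-AS1: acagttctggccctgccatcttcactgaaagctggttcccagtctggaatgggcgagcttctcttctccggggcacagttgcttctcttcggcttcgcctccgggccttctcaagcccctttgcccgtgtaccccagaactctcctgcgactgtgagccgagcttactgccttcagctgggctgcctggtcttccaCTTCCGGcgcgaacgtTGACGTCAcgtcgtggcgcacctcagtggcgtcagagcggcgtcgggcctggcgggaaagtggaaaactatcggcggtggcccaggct
STARD7-AS1: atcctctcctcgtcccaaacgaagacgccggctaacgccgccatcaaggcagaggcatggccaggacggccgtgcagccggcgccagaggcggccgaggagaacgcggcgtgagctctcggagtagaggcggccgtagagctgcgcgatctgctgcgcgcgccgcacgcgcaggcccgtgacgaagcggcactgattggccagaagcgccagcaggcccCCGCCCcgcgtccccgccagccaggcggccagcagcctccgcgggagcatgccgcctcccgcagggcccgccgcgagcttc
TRG-AS1: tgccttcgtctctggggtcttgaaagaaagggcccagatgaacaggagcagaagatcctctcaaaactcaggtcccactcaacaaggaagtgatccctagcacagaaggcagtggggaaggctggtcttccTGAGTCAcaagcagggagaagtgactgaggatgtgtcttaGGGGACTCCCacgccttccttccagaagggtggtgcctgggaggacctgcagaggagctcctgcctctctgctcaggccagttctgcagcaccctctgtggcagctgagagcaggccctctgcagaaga
FBXL19-AS1: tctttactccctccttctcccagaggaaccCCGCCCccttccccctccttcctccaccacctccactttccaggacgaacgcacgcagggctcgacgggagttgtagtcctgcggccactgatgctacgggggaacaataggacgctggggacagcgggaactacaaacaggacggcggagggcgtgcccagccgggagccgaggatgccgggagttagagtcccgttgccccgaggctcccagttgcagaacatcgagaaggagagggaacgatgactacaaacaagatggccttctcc

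The windows differ in kind. ADPGK-AS1 holds a TATA box match and none of the others, ALOX12-AS1 holds an E-box at 2 places and an SP1 match, and EMC3-AS1 holds a CRE and an ETS match. TRG-AS1 holds an AP-1 and an NF-kB match, and STARD7-AS1 and FBXL19-AS1 hold an SP1 match only. ASB16-AS1, PSMD6-AS2 and LINC00176, which also rose with and without ML-792, have windows that are not shown. That of ASB16-AS1 holds an SP1 match only, and those of PSMD6-AS2 and LINC00176 hold no match. Of all members, 164 had a window in the RefSeq table. An ETS match was found in 34 of these (20.7%), against 10.3% of all 35116 windows, an SP1 match in 91 (55.5%, against 45%), an E-box in 14 (8.54%, against 7.26%) and a CRE in 5 (3.05%, against 1.85%). AP-1 matches stood in 9 (5.49%, against 7.71%), NF-kB in 20 (12.2%, against 11.3%) and TATA boxes in 13 (7.93%, against 11.5%). The 35116 windows were not limited to genes expressed here or matched to the members by position. Differences from them were not tested. Among the 14 members with a window that rose with DNR, the counts were 0 for AP-1, 1 each for CRE, NF-kB and ETS, 2 each for E-box and TATA box and 6 for SP1. A match is a description of letters, and binding was not measured.

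DNR changed 25 members at 3 h: 20 rose and 5 fell. A member was called when its Benjamini-Hochberg adjusted p over all 13696 tested genes was below 0.05 and its change at least 2-fold (edgeR quasi-likelihood test). The members that rose made up 8.3% of the list, against 4.07% of all tested genes called higher, and those that fell 2.07%, against 2.91% called lower. In both directions together this was 10.4% of members, against 6.98% of tested genes. The choice of members used these libraries, and 3 of the 20 that rose reached the minimum only through groups other than DMSO, so that these shares are descriptions. The median log2 fold change was 0.08 for the members and 0.01 for all tested genes. Another 39 members (16.2%) passed the adjusted p alone with less than a 2-fold change, 25 of them above 0 and 14 below, against 23% of tested genes.

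Sensitivity to a single library was largest for the rises. Across the 20 members that rose, DNR replicate 2 was the lowest of the DNR libraries for 16 and DNR replicate 1 the highest for 15. Without DNR replicate 2 the count was 34 (29 higher and 5 lower), and without DNR replicate 1 it was 19 (14 higher and 5 lower). With replicates 2 and 3 only, 13 members rose and 5 fell. The share of all tested genes called was not counted under these settings, so whether these shifts are particular to the members is not known. Of the 25 calls, 18 held whichever of the 12 libraries was left out.

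ADPGK-AS1 had the largest fold change above 0, although it entered the list only through its DNR-treated libraries, so that its rank is partly set by the choice. It lies on chromosome 15 from 73075176 to 73090540 on the plus strand of GRCh37 and overlaps ADPGK, which encodes an ADP-dependent glucokinase. It had 6.63, 2.39 and 4.58 CPM in DNR, against 0.518, 0.557 and 0.484 CPM in DMSO. The groups did not overlap, although the DNR libraries spread widely, and the log2 fold change was 3.12 ± 0.44 (SE, adjusted p = 0.000174, edgeR). ADPGK itself had 113, 107 and 102 CPM in DNR, against 104, 93.8 and 94.6 CPM in DMSO, a log2 fold change of 0.14, and was not called.

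LINC00176, which entered in the same way, and LINC01004 had the largest fold changes among LINC names. LINC00176 (chromosome 20, 62665697 to 62671315, plus strand), annotated by RefSeq as the protein-coding C20orf204 and overlapping no other protein-coding gene, had 5.93, 2.85 and 2.77 CPM in DNR, against 0.647, 0.742 and 0.510 CPM in DMSO. Its log2 fold change was 2.61 ± 0.42. LINC01004 (chromosome 7, 104590762 to 104653515, minus strand) faces KMT2E, which encodes a chromatin regulator. It had 12, 8.90 and 14.1 CPM in DNR, against 2.07, 2.75 and 2.80 CPM in DMSO, and a log2 fold change of 2.21 ± 0.27. For both, every DNR library lay above every DMSO library. KMT2E had a log2 fold change of −0.09.

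ALOX12-AS1, SH3BP5-AS1, PSMD6-AS2 and PARD6G-AS1 rose by 1.74 to 1.89 on the log2 scale. ALOX12-AS1 faces ALOX12, a lipoxygenase gene, and starts 105 bp from RNASEK-C17orf49. It had 20.7, 12.2 and 21.0 CPM in DNR, against 3.99, 4.98 and 5.60 CPM in DMSO. SH3BP5-AS1, opposite the gene of a mitochondrial JNK-binding protein, had 21.1, 15.8 and 15.4 CPM in DNR, against 4.29, 5.32 and 4.79 CPM in DMSO. SH3BP5 itself had 3.54, 3.38 and 3.30 CPM in DNR, against 4.55, 4.55 and 4.56 CPM in DMSO. The sense gene was thus lower in every DNR library than in any DMSO library, but under the 2-fold minimum.

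PSMD6-AS2 faces PSMD6, a subunit of the proteasome's regulatory particle, and had 10.0, 5.46 and 7.07 CPM in DNR, against 2.07, 2.26 and 2.24 CPM in DMSO. PARD6G-AS1 faces PARD6G, a cell polarity gene, and had 32.8, 26.2 and 28.4 CPM in DNR, against 8.01, 8.44 and 9.76 CPM in DMSO. Its libraries were the most even among the larger rises, with the lowest adjusted p of all members (log2 fold change 1.74 ± 0.14, adjusted p = 2.21e-06, edgeR). PARD6G was 12.4, 20.7 and 14.2 CPM in DNR and 17.0, 22.1 and 16.5 CPM in DMSO, overlapping ranges, with a log2 fold change of −0.23.

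**Figure D1:**
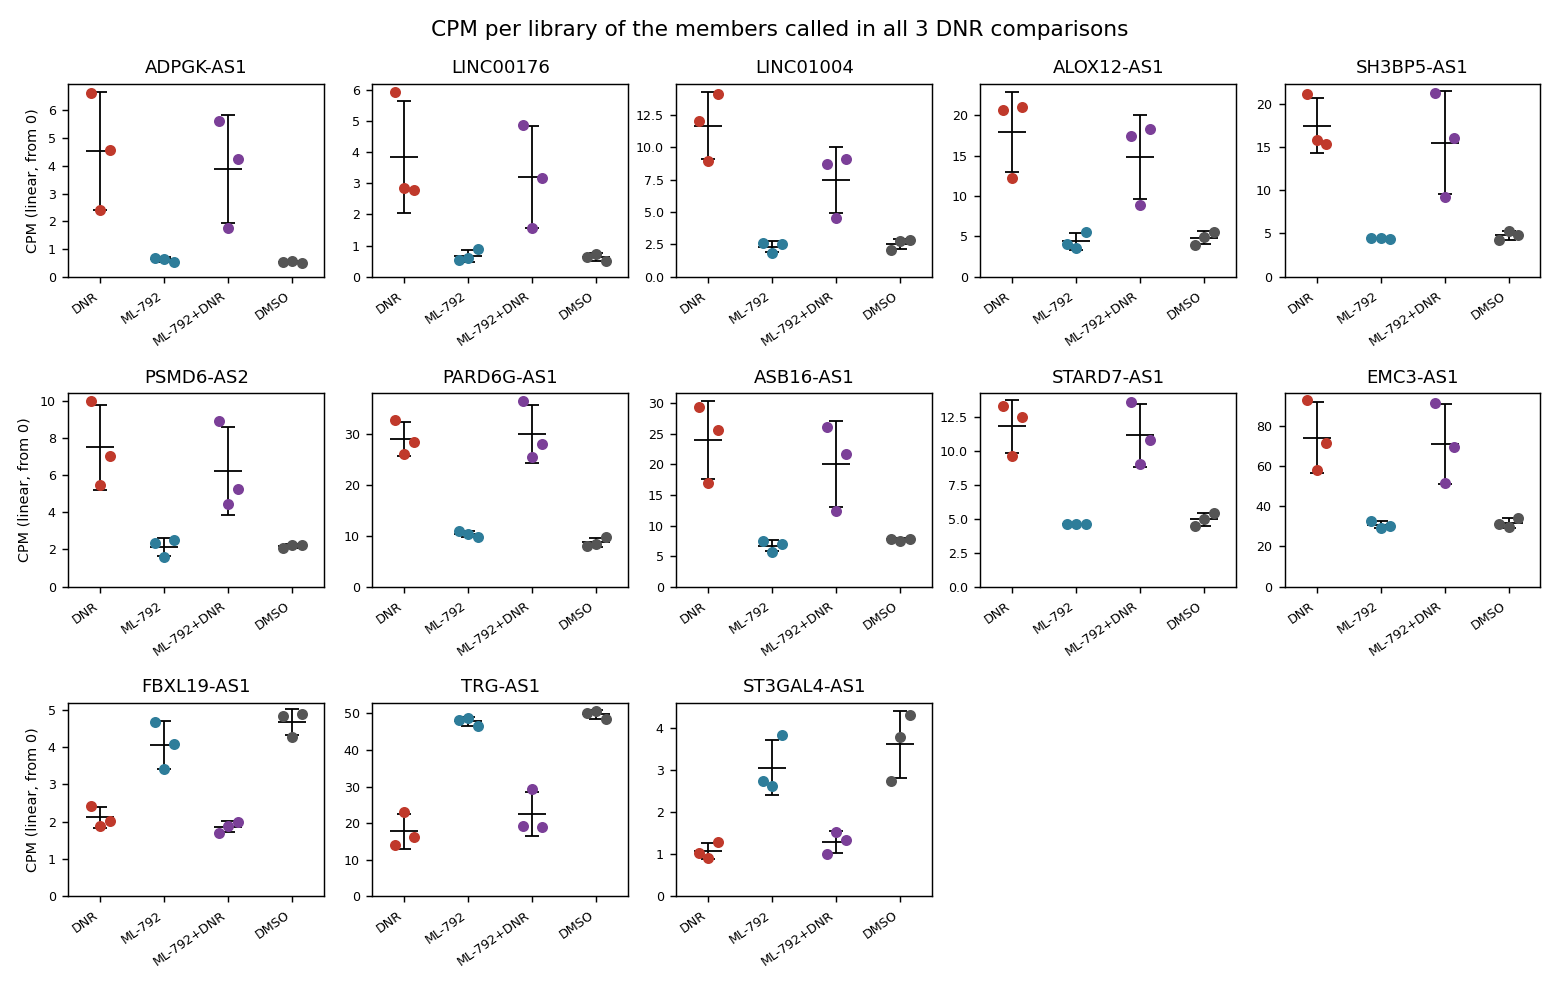
CPM (vertical axes, linear and starting at 0) in each library of the 13 members called in DNR against DMSO, in ML-792+DNR against DMSO and in ML-792+DNR against ML-792; points are libraries in the order of replicates 1, 2 and 3, horizontal marks are means and bars SD (n = 3). In 10 panels both groups with DNR stand above ML-792 and DMSO, and in FBXL19-AS1, TRG-AS1 and ST3GAL4-AS1 they stand below; the middle point, replicate 2, is often the lowest of the DNR-treated libraries.

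Transcripts that start beside a protein-coding promoter formed the next group. ASB16-AS1 starts 247 bp from TMUB2 and had 29.4, 17.0 and 25.7 CPM in DNR, against 7.83, 7.45 and 7.85 CPM in DMSO (log2 fold change 1.64 ± 0.25). SEPSECS-AS1, now SEPSECS-DT, starts 91 bp from SEPSECS, which encodes the synthase that completes selenocysteine on its transfer RNA. It had 4.52, 2.51 and 4.55 CPM in DNR, against 1.42, 1.05 and 1.89 CPM in DMSO. TMUB2 and SEPSECS were themselves higher in every DNR library than in any DMSO library, under the 2-fold minimum. Their log2 fold changes were 0.61 (adjusted p = 0.00177) and 0.56 (adjusted p = 0.00322, both edgeR). STARD7-AS1 starts 438 bp from STARD7, a lipid transfer gene, and had 13.3, 9.58 and 12.5 CPM in DNR, against 4.47, 4.98 and 5.40 CPM in DMSO. STARD7 had 135, 152 and 130 CPM in DNR, against 177, 160 and 161 CPM in DMSO, with a log2 fold change of −0.26. Of this pair, whose annotated spans overlap at their starts on opposite strands, only the antisense transcript was called.

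EMC3-AS1 had the most reads of the members that changed. It faces EMC3, a subunit of the complex that inserts membrane proteins in the endoplasmic reticulum, and had 92.9, 58.0 and 71.4 CPM in DNR, against 31.2, 29.5 and 34.1 CPM in DMSO. Its log2 fold change was 1.23 ± 0.19. EMC3 had 81.6, 68.7 and 75.2 CPM in DNR, against 54.1, 54.3 and 53.0 CPM in DMSO, a log2 fold change of 0.48 ± 0.09 that passed the adjusted p (0.00113, edgeR) but stayed under 2-fold. The GENCODE model under the name EMC3-AS1 has only 534 exonic bases and is typed as a transcribed pseudogene, so that no level per length is given for it.

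The other rises were between 1.01 and 1.17 on the log2 scale. DDX11-AS1, also known as the cohesion regulator CONCR and placed 13 bp from the start of the helicase gene DDX11, had 6.74, 6.85 and 7.04 CPM in DNR, against 2.78, 3.59 and 2.80 CPM in DMSO. Its 3 DNR libraries were nearly equal. KDM4A-AS1, opposite a histone demethylase gene, had 4.21, 2.51 and 3.65 CPM in DNR, against 1.77, 1.42 and 1.78 CPM in DMSO. USP2-AS1, opposite a deubiquitinase gene, had 6.42, 6.29 and 5.42 CPM in DNR, against 2.98, 3.53 and 2.52 CPM in DMSO. DARS-AS1, FAM13A-AS1, LINC00863, LINC01089, SAP30L-AS1 and SLFNL1-AS1 also rose, and they and DDX11-AS1, none of them called with the combination, were named after their values were seen. These 7 and SEPSECS-AS1 had log2 fold changes of 0.67 to 0.98 in ML-792+DNR against DMSO with adjusted p of at most 0.0406 (edgeR), so that only the 2-fold minimum was missed there.

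Calls near the 2-fold minimum moved with single libraries. Without DNR replicate 1, DARS-AS1, KDM4A-AS1, LINC00863, LINC01089, SAP30L-AS1, SLFNL1-AS1 and USP2-AS1 were no longer called, and with replicates 2 and 3 only these and SEPSECS-AS1 were lost. LINC00863 lies in the NUTM2 family region, where near-identical copies can share reads, and its overlapping neighbour NUTM2D, on the same strand, had a log2 fold change of 1.31. RHOF, which overlaps LINC01089 on its strand, moved the other way, with a log2 fold change of −1.16.

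The members that fell with DNR were ST3GAL4-AS1, TRG-AS1, GAS6-AS1, FBXL19-AS1 and VIM-AS1, and each of these calls held whichever library was left out. TRG-AS1, at the T cell receptor gamma locus on chromosome 7 (38370579 to 38418405, plus strand), had 14.0, 23.1 and 16.1 CPM in DNR, against 50.1, 50.6 and 48.4 CPM in DMSO. The log2 fold change was −1.49 ± 0.18 (adjusted p = 5.49e-05, edgeR). The counted row TRG, for the receptor locus itself, had 10.7, 14.5 and 10.5 CPM in DNR, against 33.4, 30.0 and 29.8 CPM in DMSO, a log2 fold change of −1.39 ± 0.12. No other antisense member was called together with its partner. GAS6-AS1, facing GAS6, the ligand of the TAM receptor kinases, had 23, 33.3 and 26.8 CPM in DNR, against 56.0, 71.4 and 60.8 CPM in DMSO. GAS6 was nearly silent, at up to 0.343 CPM in DNR and up to 0.186 CPM in DMSO.

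ST3GAL4-AS1, now GSEC, starts 53 bp from the sialyltransferase gene ST3GAL4 and had the largest fall, with 1.04, 0.899 and 1.28 CPM in DNR, against 2.74, 3.77 and 4.31 CPM in DMSO. Its log2 fold change was −1.75 ± 0.25. ST3GAL4 itself had a log2 fold change of −0.47 (adjusted p = 0.00751, edgeR), under the 2-fold minimum. FBXL19-AS1 starts 214 bp from FBXL19, an F-box protein gene, and had 2.42, 1.89 and 2.03 CPM in DNR, against 4.83, 4.27 and 4.89 CPM in DMSO. VIM-AS1 starts 1777 bp from the start of VIM, the gene of the intermediate filament vimentin, and had 2.16, 2.29 and 2.24 CPM in DNR, against 4.64, 4.58 and 4.74 CPM in DMSO. In each of these antisense transcripts the groups were apart. FBXL19 had a log2 fold change of −0.26 and was not called. VIM had 153, 168 and 141 CPM in DNR and 157, 178 and 152 CPM in DMSO, overlapping ranges, and a log2 fold change of −0.08.

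**Figure D2:**
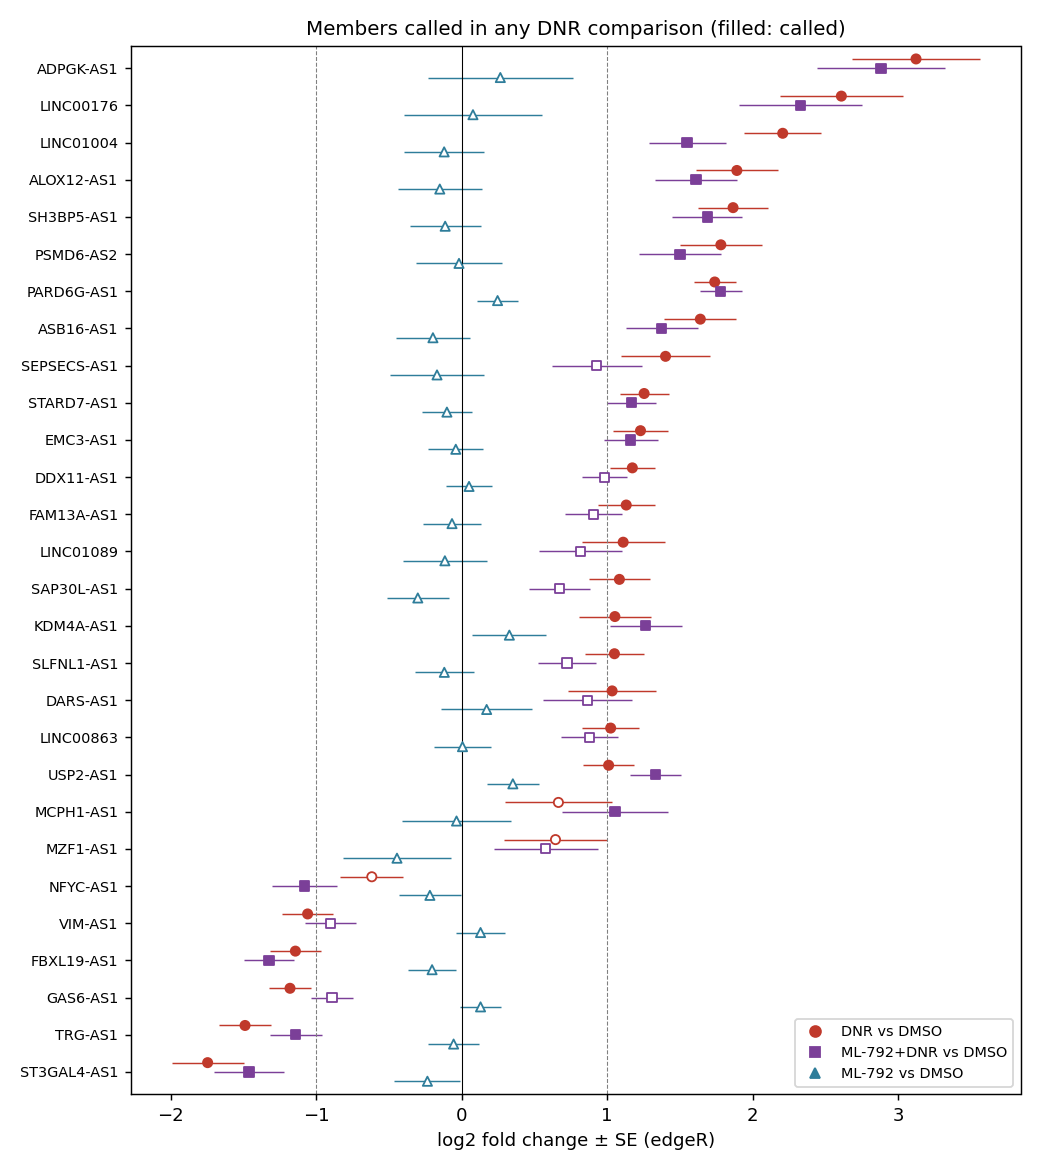
Log2 fold change with its SE (horizontal axis, edgeR) of the 28 members called in DNR against DMSO, ML-792+DNR against DMSO or ML-792+DNR against ML-792; circles are DNR vs DMSO, squares ML-792+DNR vs DMSO and triangles ML-792 vs DMSO, filled where called, and dashed lines mark a 2-fold change. Circles and squares of each member lie on the same side of 0, while the triangles stay between −0.44 and 0.35.

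What the called members share was described by position, length and level. By position, 10 of the 63 members that overlap an opposite gene without a close start rose and 1 fell. Of the 118 divergent members, some of which overlap the opposite gene too (STARD7-AS1 and VIM-AS1 among them), 8 rose and 3 fell. Of the 41 without an overlap 1 rose and 1 fell, and 1 of 8 with a same-strand overlap rose. Median log2 fold changes of these classes were 0.10, 0.08, 0.01 and 0.08. By name, 4 of 73 LINC (5.48%) and 16 of 168 antisense members (9.52%) rose, and 0 and 5 (2.98%) fell. Of all tested genes, 4.07% were called higher and 2.91% lower. The median exonic length was 4925 bases for the members that rose and 5261 for all members with a length, and the median CPM in DMSO was 4.83 for those that rose and 4.82 for all. Differences between these classes, or between a class and all tested genes, were not tested.

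**Figure D3:**
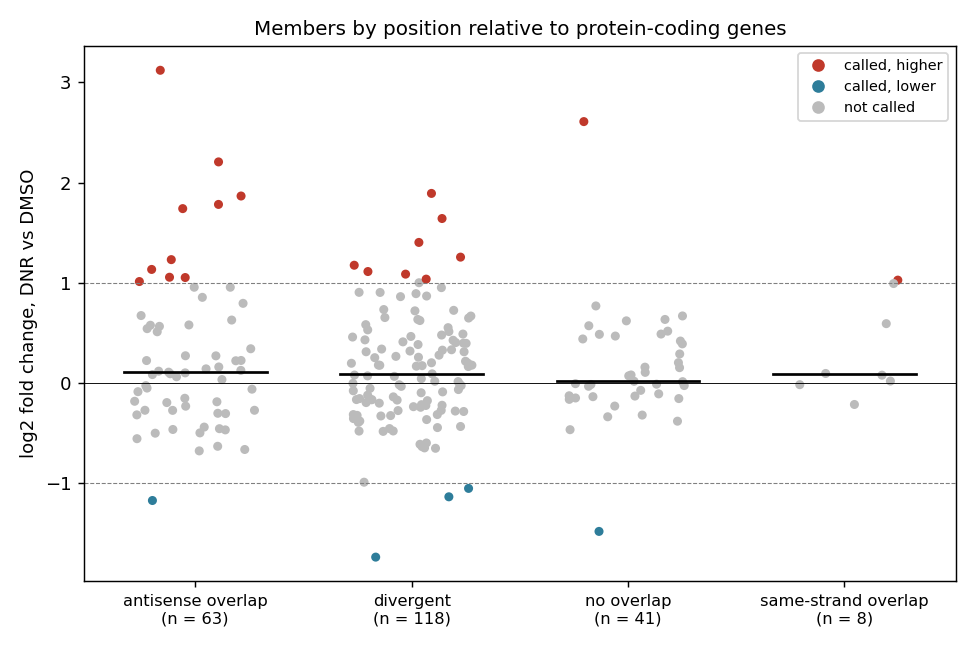
Log2 fold change of DNR against DMSO (vertical axis) for the 230 members with a position on GRCh37, by class (horizontal axis); each point is a member, black bars are class medians, dashed lines mark a 2-fold change and points are spread sideways at random for legibility. Called rises appear in all 4 classes, with 10 among the 63 antisense overlaps without a close start and 8 among the 118 divergent members. Of all tested genes, 4.07% were called higher.

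Sense partners gave a separate reading of the same loci. Of the 168 antisense members, 150 had a tested partner, the gene left when the ending of the name is removed, and these were 149 different genes. In DNR against DMSO, 19 of these antisense members (12.7%) and 15 of the partner entries (10%) were called, against 6.98% of tested genes. Only TRG-AS1 and TRG were called together, both lower; 0 pairs rose together and 0 moved in opposite called directions. The partners of the 14 antisense members that rose had log2 fold changes between −0.84 and 0.56 with a median of −0.18, 6 above 0 and 8 below, and 5 of these partners passed the adjusted p alone.

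Some called partners, in turn, faced an antisense member that was not called. CDKN2B, a cyclin-dependent kinase inhibitor gene, had 8.67, 7.47 and 8.20 CPM in DNR, against 1.53, 0.990 and 1.25 CPM in DMSO, whereas CDKN2B-AS1, or ANRIL, had 11, 11.1 and 12.8 CPM in DNR and 11.4, 12 and 11.9 CPM in DMSO. GATA2, a hematopoietic transcription factor gene, had 11.1, 16.2 and 12.3 CPM in DNR, against 58.2, 69.9 and 59.6 CPM in DMSO. GATA2-AS1 had 11.7, 14.0 and 15 CPM in DNR, against 18.1, 19.5 and 20.1 CPM in DMSO, and its log2 fold change of −0.50 stayed under the minimum where that of GATA2 was −2.25. These partners were singled out after their values were seen. The libraries were made with a stranded kit per the study's methods, but whether counting used strand was not given in the sources used here. If strand was not used, reads from overlapping genes of a pair may be mixed, which leaves such values uncertain.

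**Figure D4:**
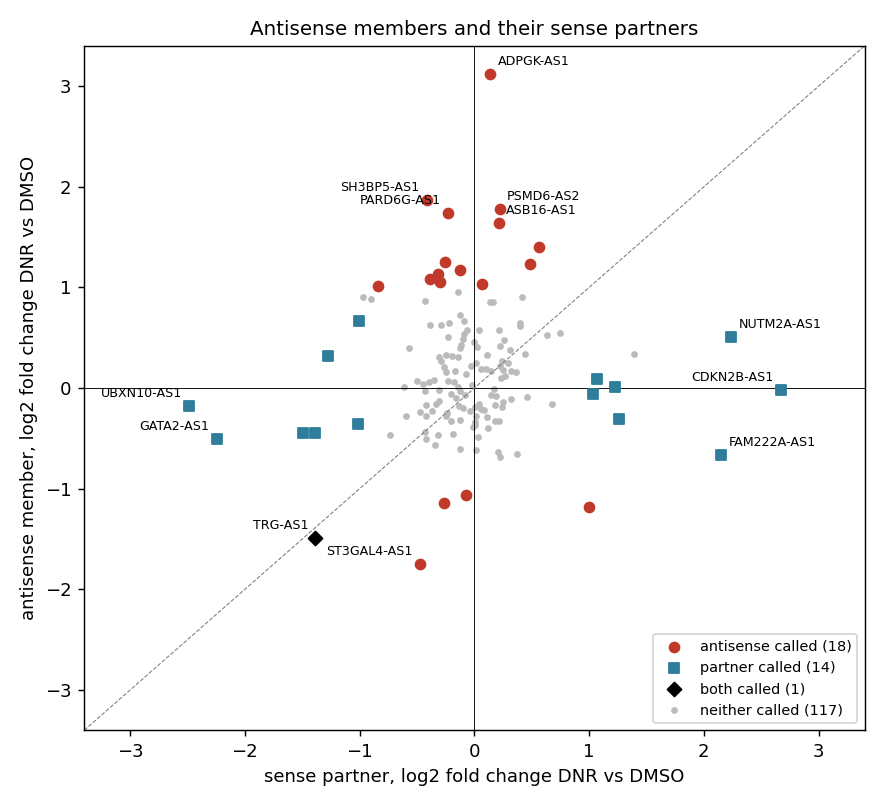
Log2 fold change of DNR against DMSO of each antisense member (vertical axis) and of its sense partner (horizontal axis) in 150 pairs; the dashed line marks equal change and the legend gives the number of pairs of each kind. In the 18 pairs with only the antisense member called, partners lie between −0.84 and 1.00; in the 14 with only the partner called, antisense members lie between −0.67 and 0.66; and TRG-AS1 with TRG is the only pair called in both.

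ML-792 alone changed 0 members by edgeR, in either direction, against 0.073% of all tested genes called higher and 0.0073% called lower. DESeq2 also called 0. At an unadjusted p below 0.05 there were 7 members (2.9%), against 5.09% of tested genes. The libraries of ML-792 all lay above those of DMSO for 5 members (2.07%) and all below for 14 (5.81%), against 4.51% and 5.98% of tested genes. LINC00926 had the lowest adjusted p, although its mean in DMSO, 44.2 normalized counts, was under the minimum that chose the members. LINC00926 entered the list through the treated groups, with a mean of 80.0 in ML-792, so that its rank is partly set by the choice. It had 2.1, 2.42 and 2.38 CPM in ML-792, against 1.27 CPM in each DMSO library, and although these did not overlap, the log2 difference of 0.85 ± 0.17 missed the threshold (adjusted p = 0.0598, edgeR). For the 20 members that rose with DNR, the log2 fold changes of ML-792 against DMSO lay between −0.30 and 0.35, 8 above 0 and 12 below.

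The combination changed 17 members relative to DMSO: 13 rose (5.39%, against 3.93% of all tested genes) and 4 fell (1.66%, against 2.56%). Relative to ML-792 it changed 18, of which 13 rose (5.39%, against 3.68%) and 5 fell (2.07%, against 2.66%). Among the rises of both, ADPGK-AS1, LINC00176 and MCPH1-AS1 had means under 50 in DMSO (18.1, 22.0 and 41.4 normalized counts). They entered the list through other groups, so that these shares too are descriptions. These comparisons and that of DNR with DMSO share libraries in pairs, so their values stand side by side and are no support of each other. Called in all of them were 13 members, 10 higher (ADPGK-AS1, ALOX12-AS1, ASB16-AS1, EMC3-AS1, LINC00176, LINC01004, PARD6G-AS1, PSMD6-AS2, SH3BP5-AS1 and STARD7-AS1) and 3 lower (FBXL19-AS1, ST3GAL4-AS1 and TRG-AS1). The share of all tested genes called in all of these comparisons was not counted, so whether this number is particular to the members is not known. ADPGK-AS1 had 5.62, 1.77 and 4.23 CPM in ML-792+DNR, against 0.683, 0.656 and 0.529 CPM in ML-792. PARD6G-AS1 had 36.6, 25.6 and 28 CPM in ML-792+DNR, against 10.9, 10.4 and 9.79 CPM in ML-792. TRG-AS1 had 19.2, 29.3 and 19 CPM in ML-792+DNR, against 48.3, 48.8 and 46.5 CPM in ML-792. In none of these did the groups overlap.

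Members called with the combination but not with DNR alone were MCPH1-AS1, NFYC-AS1 and MZF1-AS1. All moved in the same direction with DNR alone. In DNR, MCPH1-AS1 had 2.13, 1.80 and 1.75 CPM, above every DMSO library. NFYC-AS1 had 1.58, 1.36 and 1.68 CPM in DNR, below every DMSO library. MZF1-AS1 had 3.72, 1.52 and 2.90 CPM in DNR, overlapping DMSO, with a log2 fold change of 0.645. MCPH1-AS1 faces MCPH1, the gene of microcephalin, and had 3.24, 1.10 and 3.20 CPM in ML-792+DNR, against 0.993, 0.897 and 1.68 CPM in DMSO, overlapping ranges (log2 fold change 1.05 ± 0.36). MCPH1 went the other way, with 9.02, 15.4 and 9.36 CPM in ML-792+DNR, against 26.5, 25.7 and 25.4 CPM in DMSO (log2 fold change −1.19). MCPH1 was called lower with DNR alone too (log2 fold change −1.01, adjusted p = 0.00191, edgeR). NFYC-AS1 starts 426 bp from NFYC, a subunit of the transcription factor NF-Y, and had 1.24, 1.17 and 0.929 CPM in ML-792+DNR, against 2.16, 2.23 and 2.73 CPM in DMSO. MZF1-AS1 was called against ML-792, with 3.4, 1.34 and 3.13 CPM in ML-792+DNR, against 1.34, 0.924 and 1.56 CPM in ML-792, again overlapping. The MZF1-AS1 call was lost with the replicate number as a block, where the change fell just under 2-fold (adjusted p = 0.00466, edgeR). It was also lost with each of 8 libraries left out in turn, and MCPH1-AS1 against DMSO with 5. None of these members was called in the combination against DNR.

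Replicate 2 of the combination was the lowest of its group for 19 of the 20 members that rose with DNR. Without it, 28 members were called against DMSO (21 higher and 7 lower) and 34 against ML-792 (26 higher and 8 lower). Without replicate 1 of the combination the counts were 14 and 12. Here too the share of all tested genes called was not counted. Calls held whichever library was left out for 13 of the 17 members against DMSO and 11 of the 18 against ML-792. Among the members called in all of these comparisons, EMC3-AS1 lost its calls against DMSO and ML-792, STARD7-AS1 its call against DMSO and TRG-AS1 its call against ML-792 without that replicate, and TRG-AS1 against ML-792 also without replicate 3 of the combination.

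Whether ML-792 altered the DNR response was read from the combination against DNR and from the interaction. The combination differed from DNR in 0 members by edgeR and by DESeq2, against 0.0949% of tested genes called higher and 0.102% lower, with 21 members (8.71%) at an unadjusted p below 0.05, against 12.9% of tested genes. Libraries of the combination all lay above those of DNR for 15 members (6.22%) and all below for 17 (7.05%), against 8.89% and 9.85% of tested genes. With the replicate number as a block, DLGAP1-AS2 was called lower (log2 fold change −1.01 ± 0.24, adjusted p = 0.0396, edgeR). It had 2.26, 1.73 and 1.34 CPM in ML-792+DNR, against 4.75, 2.60 and 3.27 CPM in DNR, and the groups did not overlap. In ML-792 it had 1.92, 2.09 and 0.970 CPM, and in DMSO 1.75, 2.13 and 1.63 CPM. Without the block its log2 fold change was −0.998 ± 0.30 with an adjusted p of 0.165.

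For the 20 members that rose with DNR, the combination against DNR gave log2 differences from −0.66 to 0.32 with a median of −0.23, 3 above 0 and 17 below, with SE between 0.14 and 0.37. LINC01004 had the largest of these, with 8.73, 4.55 and 9.09 CPM in ML-792+DNR, against 12, 8.90 and 14.1 CPM in DNR, a log2 difference of −0.66 ± 0.25 (adjusted p = 0.276, edgeR). Its ranges overlapped, but it was lower in ML-792+DNR within each of the 3 replicate numbers. With the replicate number as a block the log2 difference was −0.67 ± 0.18 and again missed the threshold (adjusted p = 0.0586, edgeR). The 5 members that fell with DNR had differences from −0.18 to 0.35, 4 of them above 0. Members of both sets were chosen by their values in these same DNR libraries. Differences back toward DMSO are therefore partly set by the choice, and the numbers above and below 0 are descriptions only. In the interaction 0 members were called, against 0% of tested genes higher and 0% lower, DESeq2 called 0 as well, and 3 members (1.24%) had an unadjusted p below 0.05, against 3.6% of tested genes, while every member had an adjusted p of 0.999. These p-values do not show that the responses with and without ML-792 were equal.

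Among 35 other long noncoding RNAs listed for comparison, 25 were tested. DNR raised MIR22HG, the host of miR-22, which had 1.01, 0.558 and 0.374 CPM in DNR, against 0.259, 0.0928 and 0.178 CPM in DMSO, and lowered TINCR, at 0.115, 0.434 and 0.218 CPM in DNR, against 0.626, 0.773 and 0.943 CPM in DMSO. Both are low transcripts, and TINCR was also called lower in the combination against DMSO and against ML-792. MIR17HG, the host of the miR-17 to miR-92a cluster, rose with ML-792, with 453, 286 and 338 CPM in ML-792, against 35.5, 44 and 47.4 CPM in DMSO (log2 fold change 3.09 ± 0.18). It was also higher in the combination than in DNR, at 179, 221 and 256 CPM in ML-792+DNR, against 25.5, 33.2 and 30.0 CPM in DNR. PCAT6 was called higher in the combination than in ML-792, with 0.392, 0.168 and 0.482 CPM in ML-792+DNR, against 0.0525, 0.0596 and 0.0294 CPM in ML-792 (log2 fold change 2.73 ± 0.71). The 7 tested transcripts of this list above 100 CPM in DMSO (DANCR, GAS5, MALAT1, NEAT1, SNHG1, TUG1 and ZFAS1) had log2 fold changes from −0.29 to 0.08 with DNR and were not called.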

How the data were processed

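Polyadenylated RNA was sequenced in 12 libraries, 3 in each of 4 groups, which per the study's methods came from independent experiments. For alignment the authors used TopHat2 2.1.1, running Bowtie2 2.3.5.1, against hg19 (GRCh37), and HTSeq 0.11.1 gave the deposited raw counts of each gene. Cufflinks 2.2.1, Picard and DESeq2 stand in the submitters' processing notes as well. A second deposited table, of normalized signal (each library's counts over its own size factor), served only to choose the members. The authors' table of comparisons (log2 fold changes and p-values) was not used. Whether counting used strand was not given in the sources used here. Genes received 65.3% to 67.4% of the records of a library. The largest loss was of records without a unique alignment, 28% to 29.2% in libraries with DNR and 26.6% to 27.2% in those without. Whether this difference bears on the members was not tested. HTSeq found no gene for a further 3.04% to 3.77%, and left 2.26% to 2.83% unassigned because the gene was ambiguous. HTSeq's 5 summary lines were dropped.

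Members and lists were chosen with earlier results of these data known. Of 42157 genes counted, 13696 were tested after filterByExpr, set to the groups with a minimum count of 10 and a total of 15. All 12 libraries entered a single model with group as its term (edgeR 4.0.16, quasi-likelihood, TMM factors, R 4.3.3). Benjamini-Hochberg adjustment ran over all tested genes, and calls needed both an adjusted p under 0.05 and 2-fold or more. The fitting script was tested on simulated counts. CPM uses TMM-scaled library sizes. SE is the log2 fold change divided by the root of the F statistic. Depth was 28647951 to 46451654 reads in genes. No molecular identifiers are described, and p-values reflect only how far these libraries spread.

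Named genes were, in each comparison, up to 10 called members with the largest rise and 10 with the largest fall, the 8 most abundant members, 3 on either side of the minimum of 50, partners of named antisense members and called genes of the other noncoding RNA list; names outside this rule are said to be chosen later. Positions come from GENCODE v44 lifted to GRCh37 and RefSeq, and promoter windows from RefSeq on GRCh38.p14.

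Replicate numbers were checked as pairing by correlating deviations from group means across genes. Pairs sharing a number (18) gave r of 0.0722 to 0.587 and pairs that did not (36) gave −0.498 to 0.0913. Exceptions to a minimum of 0.1 were DNR vs DMSO (replicate 1, r = 0.0852) and the interaction. Results were recomputed by DESeq2 1.42.0, by size factors from median ratios, with every counted gene kept, with a replicate block, with no fold minimum and without each library in turn; replicates 2 and 3 only was a later choice, made after the data were seen.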

Additional observations from a re-analysis of the deposited data

How the results depend on the processing

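The counts of called members were little moved by the way the reads were modelled. With DESeq2 and with median-of-ratios size factors the same 25, 17 and 18 members were called in DNR vs DMSO, ML-792+DNR vs DMSO and ML-792+DNR vs ML-792. Without the count filter the first count was again 25, of which 24 were shared. With a replicate block these counts were 25, 17 and 17, and the block added 1 call, of DLGAP1-AS2, to ML-792+DNR vs DNR, where there were otherwise 0; it changed no call beside this and that of MZF1-AS1. Without a fold minimum, which by construction only adds calls, 64, 68 and 70 members passed (26.6%, 28.2% and 29%, against 30%, 35.4% and 33.8% of tested genes). Leaving out 1 library gave 19 to 34 members in DNR vs DMSO, 14 to 28 in ML-792+DNR vs DMSO and 12 to 34 in ML-792+DNR vs ML-792; the highest values came without replicate 2 of the DNR-treated group and the lowest without its replicate 1, and the cause was not tested. With replicates 2 and 3 only, the counts were 18, 14 and 12. Apart from the run without a fold minimum, shares of all tested genes were not counted under the alternatives. ML-792 vs DMSO and the interaction gave 0 members under every alternative run. Of 1173 values under the alternatives, for every called member in each comparison, the 8 most abundant members and LINC01004 and DLGAP1-AS2 in ML-792+DNR vs DNR, 1103 kept their side of the threshold, 69 lost the call and 1 gained it, and no call changed sign. Most of these values are of called members. Calls gained by other members, as without replicate 2 of a DNR-treated group, are therefore hardly counted here. The scarcest members rest on as few as 18 reads in a library, and 3 libraries a group limit the precision of their fold changes.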
